A study of Mus musculus with 12 samples.

Results

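POVPC is an oxidized phospholipid that accumulates in atherosclerotic plaques and drives smooth muscle cells away from their contractile state. This report follows 4 mouse miRNAs, mmu-miR-547-5p, mmu-miR-3569-3p, mmu-miR-6927-5p and mmu-miR-7679-3p, whose array signal was lower after POVPC in smooth muscle cells carrying non-target siRNA. They were selected on that very difference, so their siNT values are a description, and any count of calls in siNT cells is given as background and supports nothing. The independent comparison is the same treatment in cells transfected with siRNA against Oct4. The rule named 20 of the 9709 miRNA probes of the array by identifier. The study's probe table gave 12 of these 20 identifiers to the 4 miRNAs and gave no miRNA for the other 8. It also assigned 8 more probes to the 4 miRNAs, so that each miRNA had 5 probes and 28 probes are described in all. The 8 identifiers without a name are kept apart throughout and are not counted as probes of any miRNA.

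The cells, primary smooth muscle cells of the mouse aorta (MASMC), were transfected for 48 h in serum-free medium with blocking siRNA against Oct4 (siOCT4) or with non-target siRNA (siNT). They then received 10 µg/mL POVPC or the vehicle DMSO for 24 h. Each of the groups siNT-POVPC, siNT-DMSO, siOCT4-POVPC and siOCT4-DMSO held 3 arrays, 12 in all, and every group had been transfected and kept without serum, so no untransfected cells served as reference. Oct4 (Pou5f1) encodes a transcription factor of pluripotent cells. Its transcript was not analysed here, so the depth of the knockdown is not shown by these values. The labels do not say whether replicates came from separate animals or cultures, and the p-values therefore measure only the spread between these samples, which may be technical. The miRNAs that usually mark smooth muscle, endothelial or blood cells carry no name in the tables used here, so the labelled cell type was not checked.

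Each array carried 14192 small RNA probes, of which between 7706 and 11759 were well above background. The median signal before normalization was 24.1 on siOCT4-DMSO replicate 3 and between 5.59 and 8.73 on the other arrays. That array was read in another scan than the other siOCT4-DMSO replicates. The first scan held the 6 siNT arrays and siOCT4-DMSO replicates 1 and 2, and the second held siOCT4-DMSO replicate 3 with the 3 siOCT4-POVPC arrays. Signals are given below as log2 values after quantile normalization of all 12 arrays. A probe entered the test when at least 3 arrays held it well above background, as was so for 8621 miRNA probes. Of the 20 identifiers of the rule, 19 passed that filter. All 20 probes of the 4 miRNAs passed it, each of them on all 3 siNT-DMSO arrays, so they passed through the group in which they were high.

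miRNAs are short RNAs cut from a hairpin precursor that guide Argonaute proteins to messenger RNAs. Target recognition rests mostly on the seed, bases 2 to 8 from the 5′ end. One arm of the hairpin usually supplies the more abundant strand, and the opposite arm gives a rarer passenger or star strand. In smooth muscle, a few abundant and well-studied miRNAs help to maintain the contractile state. The study's table lists each of the 4 miRNAs here as a star strand.

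The mature sequences are shown because the probes read them and because the seed decides which other miRNAs could share targets. They were taken from RefSeq, build GRCm38.p6, and all 4 matched by name. The seed is in capitals.
mmu-miR-6927-5p: gUGAGGGGauccagcccaggcu
mmu-miR-3569-3p: uCAGUCUGcgcuccucuccagc
mmu-miR-7679-3p: cAGGAUCCcaggguaccaaccagc
mmu-miR-547-5p: cACUUGAGgauguaccaccca
The 4 seeds differ from each other. Among the mouse miRNAs of the reference table, mmu-miR-7070-5p holds the seed of miR-6927-5p and mmu-miR-8116 that of miR-7679-3p, with other bases beyond the seed.
mmu-miR-7070-5p: gUGAGGGGagcugaggcagga
mmu-miR-8116: aAGGAUCCggggcuaguuggc
No other mature miRNA in the table carried the seeds of miR-3569-3p or miR-547-5p.

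The hairpins show which arm each miRNA comes from, with the mature strand in capitals.
mir-6927: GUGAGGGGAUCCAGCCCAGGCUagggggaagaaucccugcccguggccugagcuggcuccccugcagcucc
mir-3569: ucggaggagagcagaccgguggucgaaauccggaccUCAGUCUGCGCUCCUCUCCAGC
mir-7679: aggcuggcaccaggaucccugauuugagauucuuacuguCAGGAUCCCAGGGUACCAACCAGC
mir-547: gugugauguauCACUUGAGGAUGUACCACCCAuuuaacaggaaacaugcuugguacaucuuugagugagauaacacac
The mature miR-6927-5p lies at chr11:97677060-97677081 on the plus strand, and its hairpin falls within the span of Mllt6, a protein-coding gene for a chromatin-associated protein. The mature miR-3569-3p lies at chr7:30589416-30589437 on the plus strand, within the span of the long non-coding RNA Gm32082. The mature miR-7679-3p lies at chr11:82985003-82985026 on the minus strand, within the span of Slfn9, a gene of the Schlafen family. The mature miR-547-5p lies at chrX:67988420-67988440 on the minus strand. No annotated gene other than its own spans that hairpin, and Mir201 starts and ends within 10 kb of it, at chrX:67988096-67988161. The other 3 hairpins had no further miRNA gene within 10 kb. The annotation used gives gene spans only, so exon and intron were not distinguished.

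Every probe was complementary to the 3′ end of its miRNA and opened with 1 additional g. The 5 probes of a miRNA form a ladder in which each is 1 base longer than the last, as the probes of miR-6927-5p show.
12 bases: gagcctgggctg
13 bases: gagcctgggctgg
14 bases: gagcctgggctgga
15 bases: gagcctgggctggat
16 bases: gagcctgggctggatc
The ladders ran from 12 to 16 bases for miR-6927-5p and miR-3569-3p, from 14 to 18 for miR-7679-3p and from 15 to 19 for miR-547-5p. The probe with the highest mean signal over the 12 arrays, called the lead probe here, was the following for the other 3 miRNAs.
miR-3569-3p, 13 bases: ggctggagaggag
miR-7679-3p, 16 bases: ggctggttggtaccct
miR-547-5p, 15 bases: gtgggtggtacatcc
The probes of miR-3569-3p and miR-7679-3p share their first 6 bases, since both miRNAs end in ccagc. Apart from the probes of miR-547-5p, which reached 1 to 5 bases of the seed, no probe covered more than 1 seed base. The miRNA bases read by each probe were found in no other mature mouse miRNA of the table. Probes of a ladder share their target and are not independent measurements.

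The signal of miR-6927-5p was the one that differed most after POVPC in siNT cells. Its lead probe, ASMM10SMR20MIRNA100006501TV1, read 4.71, 5.26 and 4.92 on the 3 siNT-DMSO arrays and 2.27, 2.53 and 2.43 on the siNT-POVPC arrays. The groups did not overlap, and the siNT-POVPC values lay near the lowest signals that counted as above background. In siOCT4-DMSO cells the same probe read 3.54, 5.30 and 2.83, and after POVPC 2.56, 2.26 and 2.51. Replicate 2 of siOCT4-DMSO stood as high as the siNT-DMSO arrays, while replicate 3 stood close to the POVPC arrays. The mean over the 5 probes was 4.61 ± 0.29 (SD, n = 3) in siNT-DMSO, 2.25 ± 0.08 in siNT-POVPC, 3.76 ± 1.29 in siOCT4-DMSO and 2.24 ± 0.22 in siOCT4-POVPC. The log2 difference of these means after POVPC was -2.36 in siNT cells and -1.51 in siOCT4 cells. Since 1 of the 5 probes was above background on no siNT-POVPC array and 4 on no siOCT4-POVPC array, these sizes rest in part on signals at background. With such probes set to the bound explained below, DMSO was on average 4.88-fold higher in siNT cells and 1.95-fold higher in siOCT4 cells. These averages are not lower limits, since probes above background on only some POVPC arrays entered with their own signals.

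Along the ladder of miR-6927-5p, the differences of the normalized signals ranged from -1.94 to -2.64 in siNT cells and from -0.69 to -2.12 in siOCT4 cells. In siOCT4 cells the 16-base probe ASMM10SMR20MIRNA100006504TV1, measured on 1 of the 3 siOCT4-POVPC arrays, differed by -0.69 (SE 0.51, limma adjusted p = 0.566). The 12-base probe ASMM10SMR20MIRNA100006505TV1 differed by -2.12 (SE 0.57, limma adjusted p = 0.248) and the lead probe by -1.45 (SE 0.53, limma adjusted p = 0.318). The 12-, 13-, 14- and 15-base probes were well above background on no siOCT4-POVPC array. For these 4 only a bound on the group mean holds, namely that the siOCT4-DMSO mean was at least 2.35-, 2.10-, 1.97- and 1.78-fold higher, respectively. The bounds fell with probe length, but the order of the siOCT4 differences themselves cannot be resolved at background. The bound sets the bright group's mean against the dim group's detection limit, or the probe's own signal where that was higher. In siOCT4 cells that mean includes the high replicate 2, so the bound need not hold for each array. For the 12-base probe the siOCT4-DMSO arrays read 3.86, 5.52 and 2.78. The detection limits of the siOCT4-POVPC arrays were 2.95, 2.71 and 2.78, so replicate 3 lay among them. In siNT cells the 16-base probe, above background on no siNT-POVPC array, was at least 3.03-fold higher in siNT-DMSO.

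**Figure D1:**
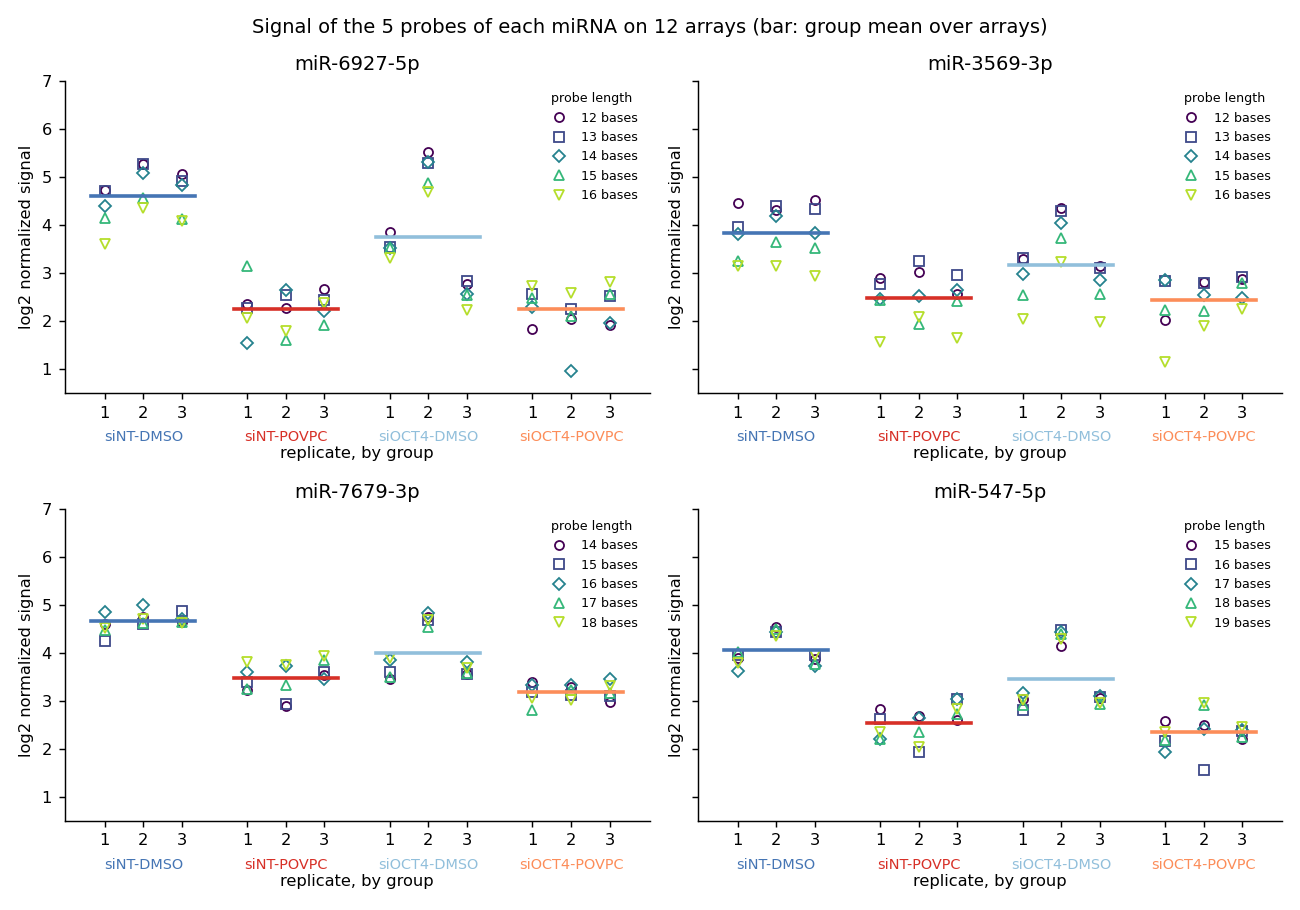
Log2 normalized signal (y axis) of the 5 probes of each miRNA on each of the 12 arrays (x axis, replicates by group), with symbols for probe length and a bar at the group mean over arrays and probes. For all 4 miRNAs the siNT-DMSO arrays sit above the siNT-POVPC arrays, and siOCT4-DMSO replicate 2 sits above replicates 1 and 3.

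miR-7679-3p was the brightest of the 4 and the one measured most fully, with 4 of its 5 probes well above background on all 12 arrays. Its lead probe, ASMM10SMR20MIRNA100008988TV1, read 4.85, 4.99 and 4.71 in siNT-DMSO and 3.59, 3.72 and 3.45 in siNT-POVPC. It read 3.85, 4.83 and 3.81 in siOCT4-DMSO and 3.32, 3.32 and 3.45 in siOCT4-POVPC. Neither pair of groups overlapped, and again replicate 2 alone of the siOCT4-DMSO arrays reached the siNT-DMSO level. The mean over the 5 probes was 4.65 ± 0.10 (SD, n = 3) in siNT-DMSO, 3.48 ± 0.17 in siNT-POVPC, 4.00 ± 0.60 in siOCT4-DMSO and 3.18 ± 0.03 in siOCT4-POVPC. The difference after POVPC was -1.17 in siNT cells, or 2.25-fold lower, and -0.81 in siOCT4 cells, or 1.76-fold lower.

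The siOCT4 differences of the 5 probes of miR-7679-3p spread little, from -0.70 to -0.96, whereas the siNT differences ran from -0.78 to -1.44. The order of the probes was not the same in both. The 18-base probe ASMM10SMR20MIRNA100008990TV1 had the smallest siNT difference and the largest siOCT4 difference (SE 0.25, limma adjusted p = 0.245). The 14-base probe ASMM10SMR20MIRNA100008987TV1 had the largest siNT difference and the smallest siOCT4 difference (SE 0.32, limma adjusted p = 0.419). For the lead probe the siOCT4 difference was -0.80 (SE 0.27, limma adjusted p = 0.285). The 15-base probe ASMM10SMR20MIRNA100008986TV1 and the 17-base probe ASMM10SMR20MIRNA100008989TV1 lay between these values.

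miR-547-5p comes from the X chromosome hairpin beside Mir201. Its lead probe ASMM10SMR20MIRNA100004625TV1 read 3.89, 4.54 and 3.88 in siNT-DMSO, against 2.83, 2.68 and 2.60 in siNT-POVPC. It read 3.04, 4.14 and 3.06 in siOCT4-DMSO and 2.59, 2.49 and 2.19 in siOCT4-POVPC, so that neither pair of groups overlapped. In siOCT4-DMSO, replicates 1 and 3 were nearly level and replicate 2 stood above both. The mean over the 5 probes was 4.05 ± 0.34 (SD, n = 3), 2.54 ± 0.27, 3.45 ± 0.77 and 2.34 ± 0.11, given for DMSO and then POVPC in siNT cells and likewise in siOCT4 cells. The difference after POVPC was -1.52 in siNT cells, or 2.86-fold lower, and -1.11 in siOCT4 cells. In siOCT4 cells 3 of the 5 probes were above background on no POVPC array, and with these at their bounds DMSO was on average 1.69-fold higher. That average is not a lower limit either, since the remaining probes were above background on only some of these arrays.

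The normalized signals of the 5 probes of miR-547-5p differed by -1.30 to -1.67 in siNT cells and by -0.84 to -1.43 in siOCT4 cells. The 17-base probe ASMM10SMR20MIRNA100004623TV1 had the lowest adjusted p of all 20 probes in siOCT4 cells, with a difference of -1.32 (SE 0.34, limma adjusted p = 0.237). Its siNT difference was -1.30. It was above background on no siOCT4-POVPC array, and siOCT4-DMSO was at least 1.67-fold higher. The same held for the 16-base probe ASMM10SMR20MIRNA100004622TV1, at least 1.55-fold higher, and the lead probe, at least 1.51-fold higher. The 18-base probe ASMM10SMR20MIRNA100004624TV1 and the 19-base probe ASMM10SMR20MIRNA100004626TV1 were measured on 1 of the 3 siOCT4-POVPC arrays.

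miR-3569-3p was the dimmest of the 4 by its mean over all arrays. Its lead probe ASMM10SMR20MIRNA100008898TV1 read 3.96, 4.39 and 4.33 in siNT-DMSO and 2.77, 3.25 and 2.97 in siNT-POVPC. It read 3.30, 4.28 and 3.10 in siOCT4-DMSO and 2.84, 2.80 and 2.92 in siOCT4-POVPC. The siOCT4 groups did not overlap, yet replicates 1 and 3 of siOCT4-DMSO lay close above the siOCT4-POVPC arrays. The mean over the 5 probes was 3.83 ± 0.10 (SD, n = 3) in siNT-DMSO, 2.48 ± 0.07 in siNT-POVPC, 3.16 ± 0.67 in siOCT4-DMSO and 2.44 ± 0.22 in siOCT4-POVPC. The difference after POVPC was -1.35 in siNT cells and -0.72 in siOCT4 cells. In siNT cells 1 of the 5 probes and in siOCT4 cells 2 were above background on no POVPC array. With these at their bounds DMSO was on average 2.33-fold higher in siNT cells and 1.46-fold higher in siOCT4 cells. Neither average is a lower limit, since other probes were above background on only some POVPC arrays.

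The rule held only the 12-base probe of miR-3569-3p, ASMM10SMR20MIRNA100008900TV1. That probe differed by -1.60 in siNT cells and by -1.03 in siOCT4 cells (SE 0.35, limma adjusted p = 0.295). The normalized signals of the other 4 probes differed by -1.21 to -1.40 in siNT cells and by -0.54 to -0.71 in siOCT4 cells. The 15-base probe ASMM10SMR20MIRNA100008897TV1, measured on 1 of the 3 siOCT4-POVPC arrays, differed by -0.54 there (SE 0.33, limma adjusted p = 0.510). The 14-base probe ASMM10SMR20MIRNA100008896TV1 was above background on no siOCT4-POVPC array, and siOCT4-DMSO was at least 1.39-fold higher there. The 16-base probe ASMM10SMR20MIRNA100008899TV1 was above background on no array of either POVPC group. It was at least 1.58-fold higher in siNT-DMSO than in siNT-POVPC, and no bound above 1 could be given in siOCT4 cells.

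The 8 identifiers without a miRNA name did not show this pattern. Their differences after POVPC in siNT cells lay between -0.18 and 0.31 and in siOCT4 cells between -0.14 and 0.43. ASMM10SMR20MIRNA100006500TV1, next in number to the probes of miR-6927-5p, read 3.56, 3.84 and 3.94 in siNT-DMSO and 3.84, 3.53 and 3.84 in siNT-POVPC. Its siNT groups overlapped. Those of the 5 miR-6927-5p probes did not, but that miRNA was selected on this very difference, so the contrast supports nothing. ASMM10SMR20MIRNA100008901TV1, ASMM10SMR20MIRNA100008902TV1, ASMM10SMR20MIRNA100008903TV1 and ASMM10SMR20MIRNA100008904TV1 differed by -0.18 to 0.21 in siNT cells. The largest siOCT4 difference of the 8, 0.43 (SE 0.22, limma adjusted p = 0.458), belonged to ASMM10SMR20MIRNA100004620TV1. ASMM10SMR20MIRNA100004621TV1 differed by 0.20 (SE 0.17, limma adjusted p = 0.599) there. ASMM10SMR20MIRNA100008985TV1 was above background on 1 of the 12 arrays and was not tested. None of the 7 that were tested had groups in which POVPC was lower without overlap, in either background. Over all tested probes the share was 8.68% in siNT and 10.8% in siOCT4 cells. With only 7 probes, none is not distinguishable from these shares.

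**Figure D2:**
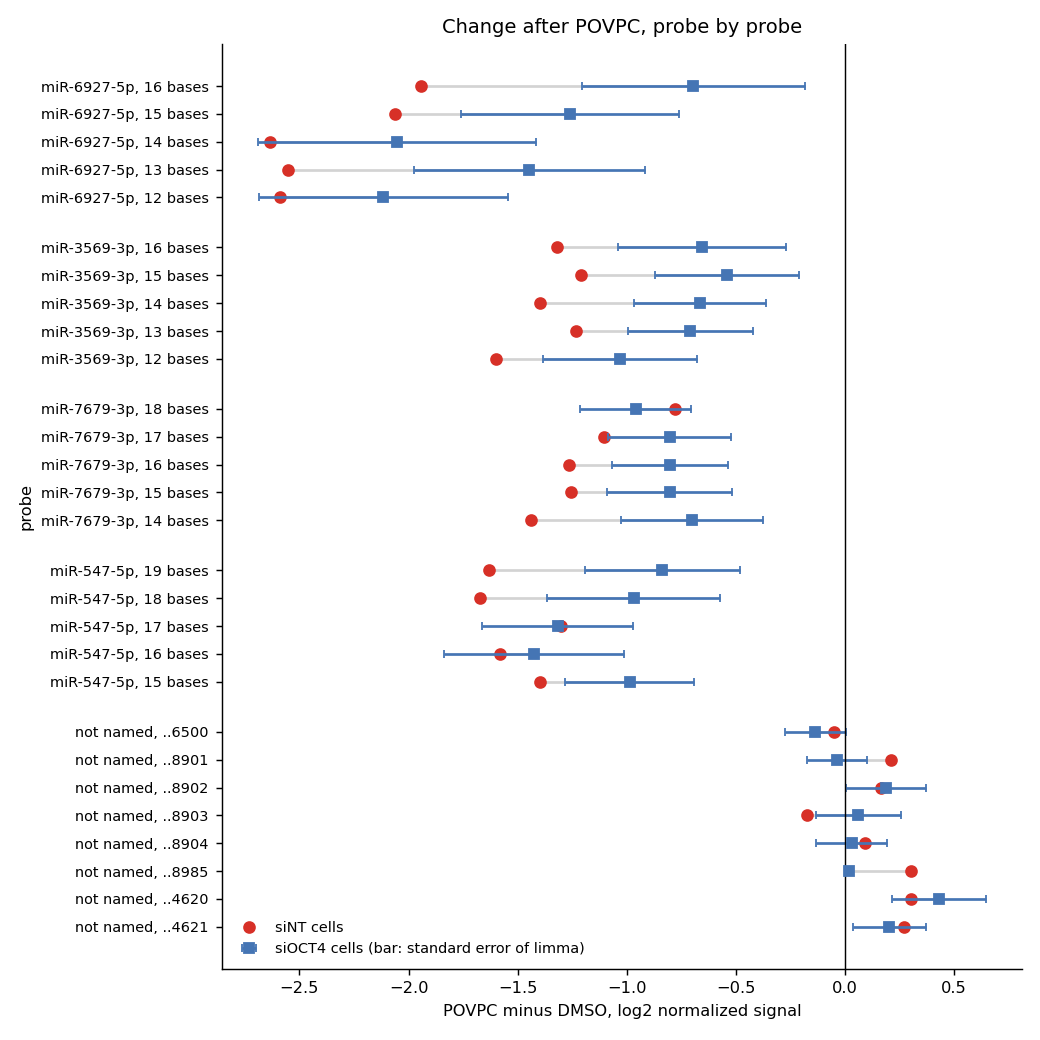
Log2 difference, POVPC minus DMSO (x axis), for each of the 28 probes (y axis), with circles for siNT cells and squares with limma standard errors for siOCT4 cells. The 20 probes of the 4 miRNAs lie left of 0 in both backgrounds, and the 8 identifiers without a name lie between -0.18 and 0.43.

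Whether the lower signal recurred in siOCT4 cells was then asked of all 20 probes of the 4 miRNAs. The mean normalized signal of all 20 was lower in siOCT4-POVPC than in siOCT4-DMSO, as it was for 4708 of the 8621 tested miRNA probes. Of the 20, 11 were above background on at least 1 siOCT4-POVPC array, and 10 of these were lower by at least 1.5-fold. Of the other 9, known only by a bound, 7 had a bound of at least 1.5-fold, with siOCT4-DMSO replicate 2 included. How many of all tested probes reached 1.5-fold was not counted. Probes of a ladder are not independent, so these counts are description only. The median difference of the 20 was -0.90, or -0.80 with those 9 at their bounds, against -0.03 over all 8621 tested miRNA probes. None reached 1.5-fold with a limma adjusted p under 0.05, and neither did any other miRNA probe, which is 0% of those tested. The adjusted p of the 20 probes lay between 0.237 and 0.566. The signal of none of the 4 miRNAs was therefore called changed by POVPC in siOCT4 cells. A p that misses the threshold does not show that the values are alike.

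At an unadjusted p under 0.05 and 1.5-fold, limma gave 442 miRNA probes in siOCT4 cells, and 1096 at that p with any fold. Of the 442, 162 were lower after POVPC, 1.88% of those tested, and 15 of the 20 probes were among them. These 15 were 5 of the 5 probes of miR-547-5p, 4 of miR-6927-5p, 4 of miR-7679-3p and 2 of miR-3569-3p. Of the 15, 7 were known only by a bound. Since probes of a ladder share their target, the 15 stand for 4 miRNAs and not for 15 measurements. What is called the methods' t-test here is an assumed unpaired test, since the methods name none for small RNAs, and takes each probe's own spread. It gave 2 of the 20 unadjusted against 0.800% of all tested probes that it called lower, and 0 of the 20 after Benjamini-Hochberg adjustment. The siOCT4 groups did not overlap, with POVPC lower, for 15 of the 20 probes and for 10.8% of the tested probes. All 5 probes of miR-7679-3p and of miR-547-5p, 3 of miR-6927-5p and 2 of miR-3569-3p made up these 15, and 6 of them were above background on no siOCT4-POVPC array.

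For reference, 19 of the 8621 probes, or 0.220%, were called lower after POVPC in siNT cells in limma, and 10 of the 20 probes were among them. Groups that did not overlap, with POVPC lower, were found for 8.68% of the tested probes in siNT cells and for all 20. Both counts describe the comparison by which the miRNAs were picked. Leaving out any 1 of the 6 arrays left 0 to 4 calls, with 0 to 3 of the 20 probes among them. With all 12 arrays in 1 fit there were 0, with the replicate block 5 (3 of the 20), and 33 (16 of the 20) by the authors' deposited values. Of the 10 probes above background on at least 1 array of both POVPC groups, 9 had a smaller difference in siOCT4 than in siNT cells, the exception being the 18-base probe of miR-7679-3p. This difference between the backgrounds was not tested, because the siNT values chose the miRNAs. Selection on a large siNT difference by itself favours a smaller one in another comparison, so the count is description only. Its share over all tested probes was not counted.

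The size of the siOCT4 difference depended on which siOCT4-DMSO arrays entered it. On siOCT4-DMSO replicate 2 the 5-probe means were 5.14 for miR-6927-5p, 3.93 for miR-3569-3p, 4.69 for miR-7679-3p and 4.34 for miR-547-5p. These are 0.04 to 0.53 above the siNT-DMSO means. Replicates 1 and 3 gave 3.55 and 2.59 for miR-6927-5p, 2.83 and 2.72 for miR-3569-3p, 3.66 and 3.64 for miR-7679-3p and 2.99 and 3.02 for miR-547-5p. Replicate 2 was the highest of the siOCT4-DMSO arrays for all 20 probes, against 24.9% of the tested probes, and for 3 of the 7 tested identifiers without a name. Without replicate 2 the siOCT4 differences were -0.82 for miR-6927-5p, -0.34 for miR-3569-3p, -0.47 for miR-7679-3p and -0.66 for miR-547-5p. The bounds given above for siOCT4 cells all include replicate 2 and were not computed without it.

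The scan moved with the treatment in siOCT4 cells. With scan as a block, the estimate rested on siOCT4-DMSO replicate 3, the only DMSO array in the scan of the siOCT4-POVPC arrays. The siOCT4 differences of the lead probes were then -0.38 for miR-6927-5p, -0.24 for miR-3569-3p, -0.45 for miR-7679-3p and -0.63 for miR-547-5p. Without the block they were -1.45, -0.71, -0.80 and -0.99. The same comparison, siOCT4-DMSO replicate 3 against the 3 siOCT4-POVPC arrays within the second scan, was also made on the 5-probe means. There the differences were -0.35 for miR-6927-5p, -0.28 for miR-3569-3p, -0.45 for miR-7679-3p and -0.68 for miR-547-5p. The direction was the same as with all 6 arrays, with a smaller size. Without siOCT4-DMSO replicate 3, the array with the high median signal, the differences were -2.10, -0.94, -0.99 and -1.32 in the same order. In siNT cells all 6 arrays were read in the first scan.

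**Figure D3:**
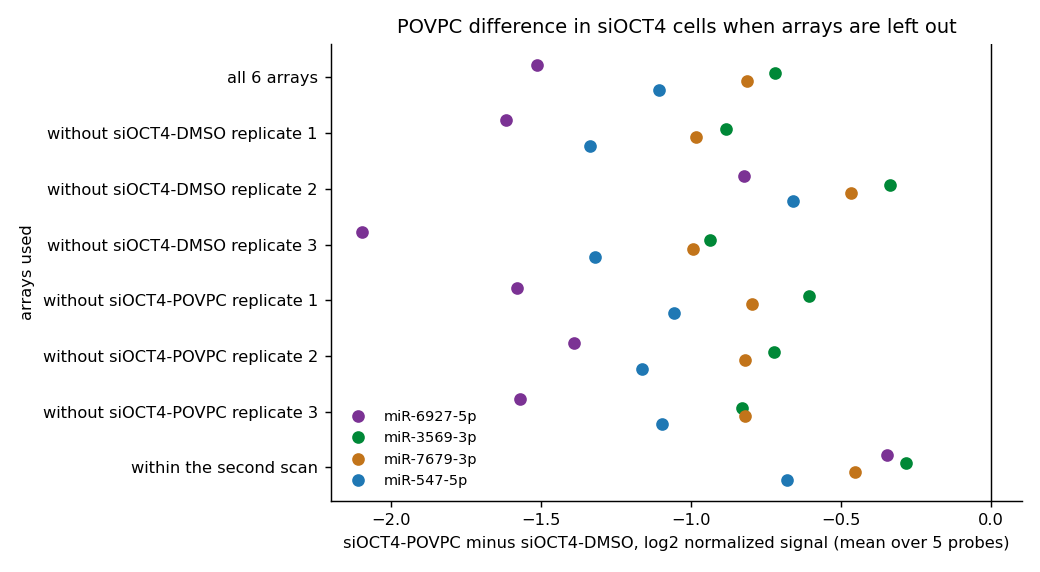
Log2 difference between siOCT4-POVPC and siOCT4-DMSO, as the mean over 5 probes (x axis), for each miRNA with all 6 arrays, with each array left out and within the second scan (y axis). All points lie below 0, and leaving out siOCT4-DMSO replicate 2 brings miR-6927-5p from -1.51 to -0.82.

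Set side by side over the 4 groups, all 4 miRNAs had the same order of mean levels, from siNT-DMSO over siOCT4-DMSO and siNT-POVPC to siOCT4-POVPC. The siNT-DMSO and siOCT4-DMSO arrays overlapped for all 4. The siOCT4-DMSO arrays lay above the siNT-POVPC arrays for miR-6927-5p, miR-3569-3p and miR-547-5p, and overlapped with them for miR-7679-3p. The 2 POVPC groups overlapped for those 3 and did not for miR-7679-3p, with siOCT4-POVPC the lower. Knockdown under DMSO went with log2 differences of -0.85 for miR-6927-5p, -0.67 for miR-3569-3p, -0.66 for miR-7679-3p and -0.60 for miR-547-5p. The DMSO groups overlapped only through siOCT4-DMSO replicate 2, since replicates 1 and 3 lay below all siNT-DMSO arrays for each miRNA. Knockdown under POVPC went with differences of -0.01, -0.04, -0.30 and -0.19 in the same order. The siNT-POVPC arrays were read in the first scan and the siOCT4-POVPC arrays in the second, so knockdown and scan cannot be told apart there. These comparisons share arrays with the one that picked the miRNAs and were not tested.

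The level differed with probe length for some of the miRNAs. In siNT-DMSO the 12-base probe of miR-3569-3p read 1.35 above the 16-base probe on the log2 scale, and it was the brighter of the pair on all 12 arrays. For miR-6927-5p the 12-base probe read 1.01 above the 16-base probe in siNT-DMSO and was the brighter on 9 of the 12 arrays. In siNT-POVPC the means of its 5 probes came within 0.36 of each other, where most probes were near background. The shortest and longest probes of miR-7679-3p and miR-547-5p differed by 0.05 and 0.07 in siNT-DMSO. Detection did not follow length in the same way in both POVPC groups. In siNT-POVPC the shorter probes of miR-6927-5p were above background on more arrays, whereas in siOCT4-POVPC only its 16-base probe was, on 1 array. The part of length and detection in the size of the differences was not tested.

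**Figure D4:**
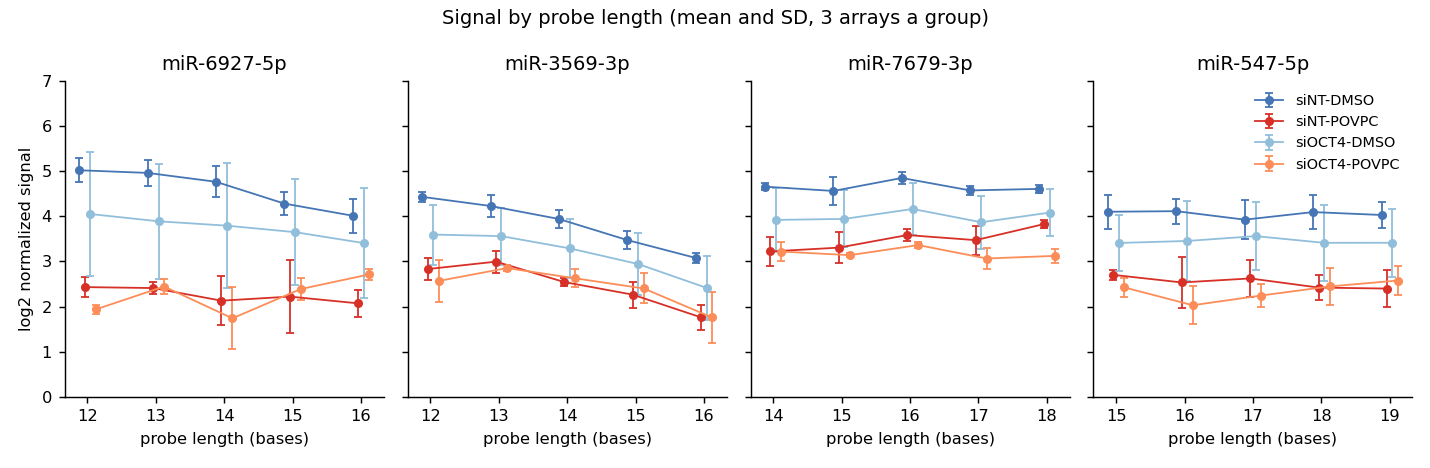
Log2 normalized signal (y axis, mean and SD of 3 arrays) by probe length in bases (x axis), with a line for each group. In siNT-DMSO the shortest probe exceeds the longest by 1.35 for miR-3569-3p and 1.01 for miR-6927-5p, against 0.05 for miR-7679-3p and 0.07 for miR-547-5p.

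With the differences between groups included, the probes of a miRNA rose and fell together over the 12 arrays. The mean pairwise Pearson's r between the 5 probes was 0.93 for miR-7679-3p and miR-547-5p, 0.92 for miR-6927-5p and 0.91 for miR-3569-3p, and no pair was below 0.86. The median over the other 101 named miRNAs with at least 3 tested probes was 0.82, and the 4 ranked 32, 33, 34 and 37 of 105. These correlations share arrays and include the difference between groups, by which both the 4 and the other named miRNAs had been listed. Taken on deviations from the group means, r averaged 0.83 for miR-6927-5p, 0.79 for miR-7679-3p, 0.78 for miR-547-5p and 0.70 for miR-3569-3p, against a median of 0.50. Without the siOCT4-DMSO arrays it averaged 0.31, 0.09, 0.43 and 0.05, against a median of 0.38. It was thus lower for all 4 without these arrays. For miR-6927-5p, miR-7679-3p and miR-3569-3p it fell below the median of the others, and for miR-547-5p it stayed above. The high r over the 12 arrays therefore does not show that probes agree within groups.

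The spread of the differences over the probes of a ladder was the largest of the 4 for miR-6927-5p. The SD of the siOCT4 differences over its 5 probes was 0.59, against 0.25 for miR-547-5p, 0.18 for miR-3569-3p and 0.09 for miR-7679-3p, and a median of 0.19 over the other named miRNAs. In siOCT4-POVPC, 4 of the 5 probes of miR-6927-5p, 3 of miR-547-5p and 2 of miR-3569-3p were at background, so these SDs do not tell probe disagreement from background noise. In siNT cells the SD was 0.33 for miR-6927-5p, 0.25 for miR-7679-3p and 0.16 for both miR-3569-3p and miR-547-5p, with a median of 0.12.

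**Figure D5:**
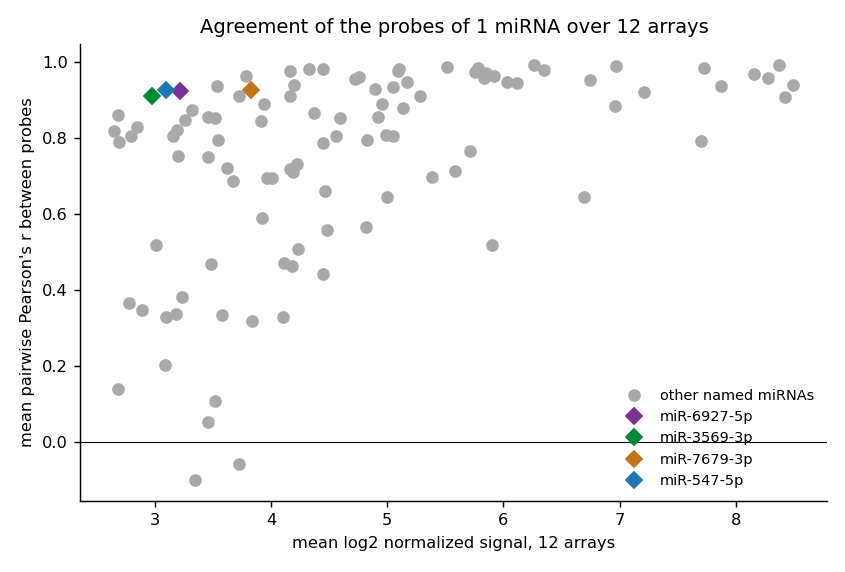
Mean pairwise Pearson's r between the probes of a miRNA over 12 arrays (y axis) against their mean log2 normalized signal (x axis), with a point for each of 105 named miRNAs. The 4 miRNAs, in colour, lie between 0.91 and 0.93 at mean signals of 2.98 to 3.83.

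The 4 miRNAs were also alike in profile to each other, with r between 0.96 and 0.98 for the 12-array means of any pair. These r include the siNT difference on which all 4 were selected, so this likeness is in part fixed by the selection. They also include siOCT4-DMSO replicate 2, the highest of its group for all 4. Measured as the root mean square difference of mean-centred log2 profiles, the nearest of the other 106 named miRNAs to miR-6927-5p were mmu-miR-7687-5p (0.47), mmu-miR-6970-3p (0.50) and mmu-miR-19b-1-5p (0.62). For miR-7679-3p they were miR-19b-1-5p (0.09), mmu-miR-5120 (0.16) and mmu-miR-184-5p (0.18). For miR-547-5p and miR-3569-3p they were the same 3, at 0.23 to 0.33 and 0.14 to 0.22. The median over all named miRNAs was between 0.80 and 1.31. All of these neighbours come from the study's own list of miRNAs lower after POVPC, which was drawn from the same arrays, so the likeness is partly a matter of how that list was made. The 31 tested probes of its 7 other miRNAs had a median difference of -1.08 in siNT cells and -0.74 in siOCT4 cells, where all 31 were lower and none was called. The 20 probes of the 4 miRNAs had medians of -1.42 and -0.90.

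The level of these miRNAs after POVPC limits what the arrays can show. In siNT-DMSO, the means of the 20 probes lay between 3.08 and 5.02 on the log2 scale, against a median of 3.48 for all tested miRNA probes, and the median of the 20 was 4.26. In siNT-POVPC they lay between 1.76 and 3.83, and 12 of the 20 probes were above background on fewer than 3 arrays. In siOCT4-POVPC, 9 of the 20 were above background on no array. The processed signal of the lead probe of miR-6927-5p before normalization was 17.2, 38.3 and 24.6 in siNT-DMSO and 4.91, 5.01 and 5.04 in siNT-POVPC. The lower signal after POVPC was thus present before normalization in siNT cells. In siOCT4-DMSO that probe gave 11.3, 36.6 and 19.7, and in siOCT4-POVPC 3.80, 3.64 and 4.16. Replicate 3 lay above replicate 1 before normalization and below it afterwards. For the lead probes of miR-3569-3p, miR-7679-3p and miR-547-5p, siOCT4-DMSO replicate 3 gave 23.9, 40.6 and 23.2 before normalization. Each was the highest of the 12 arrays, whereas the normalized values were 3.10, 3.81 and 3.06. The median signal of that array was 24.1, so its levels and the differences within the second scan depend on how it was scaled. In cultured cells such as these, fewer copies per cell and fewer cells carrying the miRNA cannot be told apart.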

How the data were processed

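Small RNA with a dephosphorylated 3′ end was ligated to Cy3 and hybridized to 12 one-colour Arraystar arrays, read by Agilent Feature Extraction 11.0.1.1 per the file headers. The deposited scanner files hold intensity values, the background-subtracted processed signal, which the authors had not normalized. The deposited series table holds log2 values that the authors quantile-normalized in GeneSpring. It served as an alternative only. Groups came from the source names of the samples, since the description of 9 samples names another treatment and was not followed.

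Outlier spots were left out, processed signals were quantile-normalized over 12 arrays, floored at 1 and taken to log2. miRNA probes well above background on at least 3 arrays were compared 2 groups at a time with limma 3.58.1 in R 4.3.3 (two-sided, Benjamini-Hochberg over all tested probes). A call needed an adjusted p under 0.05 and 1.5-fold. Low signals near the floor stretch or compress a fold change. The number of arrays limits the precision. The test was checked on simulated data. The methods name no test for small RNAs, and the methods' t-test stands for an assumed unpaired test with equal variances.

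The members and lists were chosen with earlier results of these data known. Named miRNAs were the 4 of the rule with all their probes, the 3 other named miRNAs nearest in profile to each, and the study's list of miRNAs lower after POVPC. Names came from the study's probe table, which holds 520 probes of 110 miRNAs, and sequences from RefSeq. Alternatives were the scaling, background correction, floor, filter, samples in the fit, scan or replicate as a block, test and each array left out.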

Additional observations from a re-analysis of the deposited data

How the results depend on the processing

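The mean difference after POVPC stayed below 0 for each of the 4 miRNAs under all 53 alternatives run in siNT cells and all 57 run in siOCT4 cells, and the lead probes were below 0 in all 47 fits of siOCT4 cells in which the alternative moved the estimate. With normexp background correction, whose added offset of 50 exceeds the signal of these probes, the means shrank to -0.25, -0.12, -0.17 and -0.14 in siNT cells and to -0.16, -0.052, -0.098 and -0.070 in siOCT4 cells, for miR-6927-5p, miR-3569-3p, miR-7679-3p and miR-547-5p. With a floor of 8, which lies above many of their signals after POVPC, siNT means were -1.60 for miR-6927-5p, -0.82 for miR-3569-3p and -1.05 for miR-547-5p, and the siOCT4 mean of miR-547-5p was -0.48. In the authors' value table the siNT means were -2.01 for miR-6927-5p and -1.11 for miR-3569-3p, and the brightest probe alone gave -1.23 for miR-3569-3p. Within the second scan miR-6927-5p moved to -0.35 in siOCT4 cells. Leaving out 1 array gave siOCT4 means of -0.82 to -2.10 for miR-6927-5p, -0.34 to -0.94 for miR-3569-3p, -0.47 to -0.99 for miR-7679-3p and -0.66 to -1.34 for miR-547-5p. The 2 ends were without siOCT4-DMSO replicates 2 and 3, except that for miR-547-5p the larger end was without replicate 1. Only miR-7679-3p had probes above background on all 12 arrays, so that filter gave no value for the other 3.

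Scan as a block aside, no lead probe was called in siOCT4 cells under any alternative with an adjusted p, which ranged from 0.13 to 0.72. Each lead probe was called at limma's unadjusted p, with differences of -1.45, -0.71, -0.80 and -0.99. The number of all miRNA probes called in siOCT4 cells was 0 and rose to 13 with a floor of 8, 39 and 94 with 75th percentile scaling over probes measured on all arrays and over all small RNA probes, 13 with normexp, 30 for probes above background on all 12 arrays, 50 with all 12 arrays in 1 fit, 1016 with scan as a block, 264 and 2 with the methods' t-test without and with adjustment, and 442 with limma's unadjusted p. None of the 20 probes was among these except under the unadjusted tests. Groups without overlap, an alternative chosen after seeing the data, gave 934. In siNT cells the count of 19 became 7, 32, 10 and 1 under the floor, both scalings and normexp, 33 in the authors' table, 3 without the filter, 6 for probes above background on all 12 arrays, 0 with all 12 arrays in 1 fit, 157 and 0 with the methods' t-test, and 211 with limma's unadjusted p. Leaving out 1 array gave 0 to 4 calls in siNT cells, with 0 without siNT-DMSO replicate 3, and 0 or 1 in siOCT4 cells, with 1 without siOCT4-DMSO replicate 3. The causes were not tested.

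For samples with the same replicate number, deviations from the group means correlated with r from -0.24 to 0.43 in siNT and from -0.13 to 0.05 in siOCT4 cells. Samples with different numbers ranged from -0.53 to 0.33 in siNT cells. So few pairs cannot show whether the numbers pair the samples, and the main comparison took them as unpaired. With the replicate block the calls were 5 in siNT cells and 0 in siOCT4 cells.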
